A study of Mus musculus with 18 samples.

Results

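Thapsigargin blocks the calcium pump of the endoplasmic reticulum (ER), so that calcium leaks out of the organelle, calcium-dependent chaperones fail and misfolded proteins accumulate. Cells answer with the unfolded protein response, whose sensors IRE1, PERK and ATF6 raise chaperones, the ER-associated degradation (ERAD) machinery and stress transcription factors. AGO2 is the Argonaute protein that carries microRNAs and small interfering RNAs and is able to cut target mRNAs. The study asked whether AGO2 holds down some mRNAs during ER stress. Described here is the comparison of mouse embryonic fibroblasts (MEFs) labelled Ago2-/- with MEFs labelled Ago2+/+, both under thapsigargin.

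The members were 6 of the 18 RNA-seq libraries, chosen by their titles. Of these, 3 libraries were labelled Ago2-/- and treated with thapsigargin at 500 nM, and 3 were labelled Ago2+/+, named DCR1 in their titles, and treated with the same dose. The other 12 libraries came from the same labelled genotypes under the solvent DMSO or under tunicamycin, which blocks N-linked glycosylation. All groups were MEFs grown in flasks before treatment. The authors deposited 1 FPKM per group (fragments scaled to transcript length and library size) for each of 51499 assembled loci, and no value per library. The comparison therefore had no replicate spread and no p-value, and the depth of the libraries is unknown. The labels do not say which part of Ago2 was deleted, whether a line was 1 clone, or whether the replicates were separate cultures. For 1 of the 6 libraries, replicate 2 of the group labelled Ago2+/+, the source name gives the other genotype than the genotype label. In all, 4 of the 18 libraries had such a conflict. The others were replicate 2 of Ago2+/+ DMSO, replicate 2 of Ago2+/+ tunicamycin and replicate 3 of Ago2-/- DMSO. Those groups are used below for comparison, and every group follows the titles.

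At the RNA level, the transcript that checks the labels went against them. The study checked AGO2 protein in its Ago2-/- MEFs by western blot, and no protein was measured in these libraries. Ago2 (chr15:73090392-73184840, minus strand, GRCm38) stood at 20.7 FPKM under the Ago2-/- label and at 17.0 FPKM under the Ago2+/+ label. It was thus 1.22-fold higher in the group whose label gives a knockout. Its values in the other groups were 22.1 FPKM in Ago2+/+ DMSO, 5.75 in Ago2+/+ tunicamycin, 5.61 in Ago2-/- DMSO and 15.5 in Ago2-/- tunicamycin. An allele that still makes a full-length but disrupted transcript cannot be told apart from an intact one by an FPKM per locus. The groups also differed in sex-linked transcripts. Xist, the noncoding RNA that coats the inactive X chromosome, was measured in a locus with 2 overlapping annotations at 33.5 FPKM under the Ago2-/- label and at 0.0102 FPKM under the Ago2+/+ label. The Y-linked genes Eif2s3y, Ddx3y, Kdm5d and Uty stood at 32.3, 23.3, 7.77 and 6.03 FPKM under the Ago2+/+ label and were all listed at 0 under the Ago2-/- label. Genotype and cell line of origin cannot be told apart in this comparison, and the groups are called knockout-labelled and wild-type-labelled throughout, by their labels only. Where a value is set against another below, the knockout-labelled group comes first.

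The loci were compared on the log2(FPKM + 1) scale, as the knockout-labelled group minus the wild-type-labelled group. This difference, called the log2 difference, understates the change of loci with low FPKM. A locus was tested where its mean over both groups reached 1 FPKM, and it was called at a log2 difference of 1 or more in either direction, which is 2-fold. Of 11766 loci tested, 693 (5.89%) were called higher and 991 (8.42%) were called lower in the knockout-labelled group, in all 1684 loci or 14.3%. The shares of 5.89% higher and 8.42% lower are the background for the counts of each gene list below. The log2 differences nearest the threshold were 1.00004 inside and 0.9990 outside for higher loci, and -1.00002 inside and -0.9994 outside for lower loci. The median log2 difference over all loci tested was -0.03. In bulk RNA, fewer cells of a type and less RNA per cell cannot be told apart. For scale, the same rule called between 13.4% and 18.6% of loci in 12 of the 15 pairs of groups and between 1.20% and 2.08% in the other 3 pairs, which join different labelled genotypes and different treatments. Each thapsigargin group belonged to 1 of those 3 pairs. The knockout-labelled group was paired with Ago2+/+ DMSO, and the wild-type-labelled group with Ago2-/- tunicamycin.

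**Figure D1:**
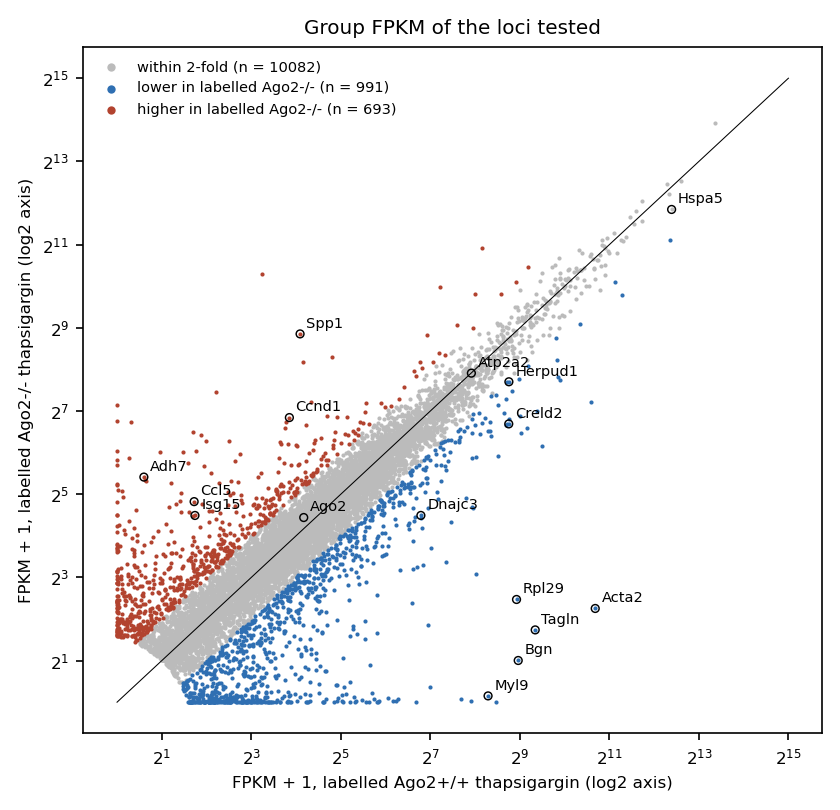
Group FPKM + 1 of the 11766 loci tested, on log2 axes, with the group labelled Ago2+/+ thapsigargin on the x axis and the group labelled Ago2-/- thapsigargin on the y axis. Each point is 1 locus, the line marks equal values, and circled genes are named; Acta2, Tagln, Bgn and Myl9 lie far below the line while Hspa5, Atp2a2 and Ago2 lie close to it.

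Both groups had transcripts of fibroblasts, though not of every marker. Vim, an intermediate filament of mesenchymal cells, was at 1290 FPKM in the knockout-labelled group and 1181 FPKM in the wild-type-labelled group. Of 14 fibroblast markers, 2 were listed at 0 in the knockout-labelled group and 1 in the wild-type-labelled group, and 4 were below the filter. Of the 10 tested, 1 (10%) was called higher and 5 (50%) lower, beside 5.89% and 8.42% of all loci. The median was -0.81, and -0.15 without the filter on low values. The higher one was the locus that holds S100a4 with S100a3, at 1926 against 285 FPKM. The lower ones were Pdgfrb, Col1a1, Fn1, Col1a2 and Ddr2, and Thy1 was listed at 0 in both groups. Endothelial, haematopoietic and skeletal muscle markers were at or near 0, apart from Cd68 at 1.82 against 1.36 FPKM, and single markers of the other lists were present. The summed FPKM of 9 endothelial markers was 0.210 in the knockout-labelled group and 0.805 in the wild-type-labelled group, and none was tested. The 12 haematopoietic markers summed to 2.53 and 1.602 FPKM, with Cd3e, Adgre1 and Tyrobp at 0 in both groups, and the 8 skeletal muscle markers to 0.146 and 0.0177 FPKM. The 10 epithelial markers summed to 3.28 and 16.1 FPKM, almost wholly from Krt19 at 2.81 and 15.8 FPKM, with Epcam at 0 and 0.0394 FPKM. The 7 adipocyte markers summed to 1.77 and 4.81 FPKM, with Pparg called lower and Adipoq at 0 in both. The 7 pericyte markers summed to 11.4 and 46.4 FPKM, with Mcam called lower at 4.52 against 35.5 FPKM. Of the 8 neural and glial markers with a locus, Nes (45.7 against 40.4 FPKM) and Map2 (19.9 against 12.2 FPKM) passed the filter and neither was called.

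The regulatory stretches below belong to 3 of the gene groups described here: contractile genes, interferon-stimulated genes and ER chaperones. Only stretches that hold the motif named with them are shown. They were taken from the RefSeq promoter table of GRCm38.p6, which gives the bases before each annotated start, and run 5′ to 3′ on the strand of the gene. Capitals mark the matched motif on either strand. The first pair holds a CArG box, the element bound by serum response factor at contractile genes.
Myl9 (chr2:156775273-156775342, plus strand): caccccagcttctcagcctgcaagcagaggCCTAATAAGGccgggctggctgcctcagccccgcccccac
Cnn2 (chr10:79988514-79988583, plus strand): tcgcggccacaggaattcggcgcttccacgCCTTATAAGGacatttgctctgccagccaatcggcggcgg
The next pair holds the interferon-response motif GAAANNGAAA, which interferon regulatory factors bind.
Isg15 (chr4:156200845-156200926, minus strand): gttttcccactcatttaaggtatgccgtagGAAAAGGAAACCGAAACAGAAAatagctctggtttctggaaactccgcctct
Ifit1 (chr19:34640755-34640843, plus strand): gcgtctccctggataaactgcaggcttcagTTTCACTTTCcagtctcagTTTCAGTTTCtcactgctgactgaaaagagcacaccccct
The last 3 hold the ER stress response element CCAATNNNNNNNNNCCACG, to which NF-Y and ATF6 bind.
Dnajc3 (chr14:118937797-118937875, plus strand): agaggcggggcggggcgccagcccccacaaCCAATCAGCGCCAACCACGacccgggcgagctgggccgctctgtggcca
Creld2 (chr15:88819490-88819568, plus strand): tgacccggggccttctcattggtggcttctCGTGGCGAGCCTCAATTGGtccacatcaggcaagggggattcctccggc
Hspa5 (chr2:34771995-34772073, plus strand): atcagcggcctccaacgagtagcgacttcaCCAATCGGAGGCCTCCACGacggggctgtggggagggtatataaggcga

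Of 25 loci of ER chaperones and folding enzymes, all tested, 7 (28%) were called lower in the knockout-labelled group. None was called higher and 18 were not called. Over all loci tested, 8.42% were called lower and 5.89% higher. A negative log2 difference was measured for 23 of the 25. Their median was -0.58, beside -0.03 over all loci tested. Dnajc3 (p58IPK), a cochaperone of the lumen, was at 21.5 FPKM against 110 FPKM in the wild-type-labelled group, which is 5.10-fold lower. Creld2, a secreted ER protein raised by ER stress, was at 102 against 430 FPKM, 4.21-fold lower. Dnajb9 (ERdj4), a cochaperone that IRE1 signalling raises, was at 9.05 against 31.4 FPKM. These 3 genes thus had the largest differences of the list. The others called lower were Serpinh1, the collagen chaperone HSP47, Hyou1, Sdf2l1 and Txndc5, with folds of 3.02, 2.60, 2.32 and 2.13. The most abundant chaperone, Hspa5 (BiP), was at 3677 FPKM against 5367 FPKM, a log2 difference of -0.55 that did not reach the threshold. Hsp90b1 (GRP94), Calr and Canx had log2 differences of -0.12, -0.10 and -0.08. The positive values were those of Ero1l (0.70), an oxidase of the lumen, and Pdia6 (0.20).

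Of 20 loci of IRE1-XBP1 targets and the ERAD machinery tested, 8 (40%) were called lower and 1 (5%) higher. Over all loci, these shares were 8.42% and 5.89%, and the list median was -0.46. With FPKM scaled to equal totals, 6 loci of the list were called. Syvn1, the ubiquitin ligase HRD1 of ERAD, was at 37.5 against 121 FPKM. Sec61b, a subunit of the translocon, was at 85.9 against 274 FPKM, and Edem1, a lectin that hands misfolded glycoproteins to ERAD, was at 26.8 against 70.5 FPKM. Herpud1, a scaffold of the HRD1 complex, was at 207 against 431 FPKM, 2.08-fold lower and close to the threshold. Derl1, Selenos, Edem3 and Ube2j1 were the other loci called lower, with log2 differences from -1.31 to -1.05. Ern1, which encodes IRE1 itself, was the locus called higher, at 34.3 against 9.36 FPKM. Xbp1 and Atf6, the transcription factors of both arms, were within 2-fold, at -0.32 and -0.21.

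The PERK-ATF4 arm was nearer the median of all loci. Of 23 loci tested, 4 (17.4%) were called lower and none higher, with a median of -0.19. Over all loci, 8.42% were called lower, 5.89% higher and 14.3% in either direction. Eif2ak3, which encodes PERK, was at 6.40 against 17.4 FPKM. Stc2, a secreted glycoprotein induced by ATF4, was at 0.254 against 6.37 FPKM, and Gdf15 and Vldlr had log2 differences of -1.83 and -1.38. The transcription factors of this arm were within 2-fold. Atf4 was at 407 against 583 FPKM and Ddit3 (CHOP), a mediator of ER stress-induced death, was at 253 against 345 FPKM. Trib3 and Slc7a11 differed by -0.02 and -0.01.

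Among genes of ER calcium handling, the pump that thapsigargin blocks was equal in both groups. Atp2a2 (SERCA2) was at 240 FPKM in the knockout-labelled group and 241 FPKM in the wild-type-labelled group. Of 17 loci tested on this list, 2 (11.8%) were called lower and none higher. Over all loci, 8.42% were called lower and 14.3% in either direction. The median was -0.04. Rcn3, a calcium-binding protein of the secretory pathway, was at 24.3 against 122 FPKM, and Saraf, an inhibitor of store-operated calcium entry, was at 45.2 against 92.9 FPKM. Saraf lay close to the threshold, and 1 locus of the list was called after centring or with equal totals.

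Values in the solvent groups are given beside these stress genes, not as a matched baseline. The rule called 13.4% of loci between Ago2+/+ thapsigargin and Ago2+/+ DMSO. It called 14.8% between Ago2-/- thapsigargin and Ago2-/- DMSO, but 2.08% between Ago2-/- thapsigargin and Ago2+/+ DMSO. Treatment and cell line of origin cannot be told apart between these groups. Dnajc3 was at 45.6 FPKM in Ago2+/+ DMSO and 67.2 FPKM in Ago2-/- DMSO, so the knockout-labelled group, at 21.5 FPKM, was the lowest of all 6 groups. Creld2 was at 211 and 321 FPKM in the DMSO groups, and Herpud1 at 293 and 334 FPKM, and for both the knockout-labelled group was again the lowest. Hspa5 was at 4808 FPKM in Ago2+/+ DMSO and 7682 FPKM in Ago2-/- DMSO, both above 3677 FPKM. The stress genes of the knockout-labelled group were therefore below those of both solvent groups for these 4 genes. The wild-type-labelled group was above both DMSO groups for Dnajc3, Creld2 and Herpud1 and between them for Hspa5.

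**Figure D2:**
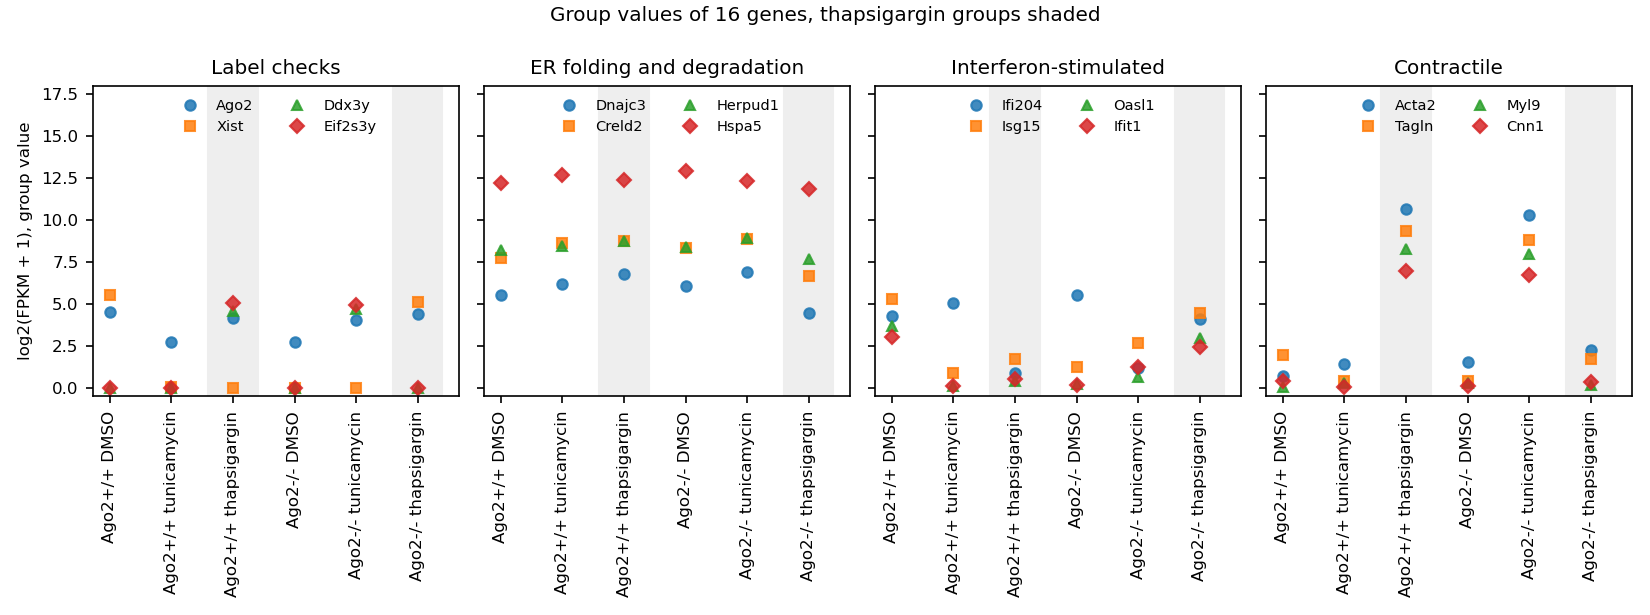
Group values of 16 genes as log2(FPKM + 1) in all 6 groups, 1 point per gene and group without error bars, since each group has 1 deposited value; the thapsigargin groups are shaded. Acta2, Tagln, Myl9 and Cnn1 are high in Ago2+/+ thapsigargin and Ago2-/- tunicamycin only, and Isg15, Oasl1 and Ifit1 are highest in Ago2+/+ DMSO and Ago2-/- thapsigargin.

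Of 40 interferon-stimulated loci, 21 were tested. Of these, 7 (33.3%) were called higher and 2 (9.52%) lower in the knockout-labelled group, and 12 were not called. Over all loci, 5.89% were called higher and 8.42% lower. The median of the tested loci was 0.69, and without the filter on low values it was 0.36. Isg15, a ubiquitin-like modifier, was at 21.4 against 2.34 FPKM, 9.16-fold higher. Ifi204, a DNA-binding member of the p200 family, was at 16.4 against 0.889 FPKM. Oasl1 was at 6.81 against 0.350 FPKM, Oasl2 at 4.68 against 0.220 FPKM and Ifit1, which binds foreign RNA, at 4.51 against 0.448 FPKM. Irf7, the interferon regulatory factor that amplifies the response, was at 2.34 against 0.303 FPKM and Xaf1 at 2.85 against 0.758 FPKM. The 2 genes called lower were Irgm1, an interferon-inducible GTPase, at 2.26 against 12.4 FPKM, and Rtp4, at 2.38 against 6.31 FPKM.

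These genes were not at their highest under thapsigargin. In Ago2+/+ DMSO, Isg15 was at 39.2 FPKM, Oasl1 at 12.2 FPKM and Ifit1 at 7.12 FPKM, above the knockout-labelled group for each gene. Ifi204 had another pattern, with its highest values in Ago2-/- DMSO (45.4 FPKM) and Ago2+/+ tunicamycin (32.5 FPKM).

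The sensors upstream of interferon differed less. Of 13 loci of double-stranded RNA and DNA sensing tested, 2 were called higher and none lower. This was 15.4% of the list, near the 14.3% of all loci called in either direction. Over all loci, 5.89% were called higher, and the list median was 0.15. Tmem173 (STING), the adaptor of cytosolic DNA sensing, was called at 18.5 against 6.92 FPKM. Ifih1 (MDA5), a sensor of long double-stranded RNA, was called at 4.29 against 1.37 FPKM. Ddx58 (RIG-I), Eif2ak2 (PKR) and Mavs were within 2-fold, with log2 differences of -0.45, -0.32 and -0.23. Of 13 loci of MHC class I presentation tested, 2 (15.4%) were called higher and none lower, with a median of 0.06. This share too was near the 14.3% of all loci called in either direction, and above the 5.89% called higher. Nlrc5, the transactivator of class I genes, was at 3.56 against 0.403 FPKM. H2-D1 was at 156 against 77.4 FPKM, at the threshold with a fold of 2.01, while H2-K1 differed by -0.12.

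Chemokines and cytokines were split. Of 11 loci tested, 4 (36.4%) were called higher and 4 (36.4%) lower, beside 5.89% and 8.42% of all loci. The list median was 0.65, and 0.08 without the filter on low values. Ccl5, an interferon-responsive attractant of T cells, was at 27.3 against 2.30 FPKM, 11.9-fold higher. Il11, Il1rl1 and Cxcl1 were also called higher. Cxcl12, the stromal ligand of CXCR4, was at 0.0127 FPKM in the knockout-labelled group and at 237 FPKM in the wild-type-labelled group. It was near 0 in Ago2+/+ DMSO as well (0.0157 FPKM), and lay between 194 and 245 FPKM in the other 3 groups. Ccl7, Ccl2 and Cx3cl1 were the other genes called lower. Of 4 complement loci tested, Masp1 and Cd59a (50%) were called lower, beside 8.42% of all loci. After centring or with equal totals, 1 of them was called.

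Contractile genes made up 4 of the 10 loci with the largest differences in the lower direction. Of 18 smooth muscle loci tested, 13 (72.2%) were called lower and 1 (5.56%) higher, beside 8.42% and 5.89% of all loci. The list median was -2.14. Acta2, smooth muscle α-actin, was at 3.77 FPKM in the knockout-labelled group and at 1644 FPKM in the wild-type-labelled group, 436-fold lower. Tagln (SM22), an actin-binding protein, was at 2.33 against 648 FPKM, 278-fold lower. Myl9, a regulatory myosin light chain, was at 0.110 against 312 FPKM, and Cnn1 (calponin) at 0.292 against 126 FPKM. These 4 genes were near 0 in the knockout-labelled group and abundant in the wild-type-labelled group. They were also abundant in Ago2-/- tunicamycin, where Acta2 was at 1252 FPKM and Tagln at 444 FPKM, and were at 2.90 FPKM or less in both DMSO groups and in Ago2+/+ tunicamycin. Tropomyosin 1 (Tpm1) and caldesmon (Cald1) were present in both groups, at 212 against 945 FPKM and 116 against 512 FPKM. Srf, which encodes serum response factor, was within 2-fold at -0.79. Des (desmin) was the locus called higher, at 2.58 against 0.397 FPKM.

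Most of the extracellular matrix was lower as well. Of 20 loci of proteoglycans and matrix glycoproteins tested, 16 (80%) were called lower and 2 (10%) higher, beside 8.42% and 5.89% of all loci. The list median of -2.43 was the lowest among the functional lists. Bgn (biglycan), a small leucine-rich proteoglycan, was at 1.00 against 498 FPKM. Fbln5, a fibulin of elastic fibres, was at 0.0541 against 76.6 FPKM, and Ctgf, a matricellular target of YAP and TGF-β, at 7.45 against 260 FPKM. Fibronectin (Fn1) was at 95.2 against 567 FPKM. Spp1 (osteopontin) went the other way, at 461 against 16.02 FPKM, 28.8-fold higher.

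Of 17 collagen chains tested, 9 (52.9%) were called lower and 2 (11.8%) higher, beside 8.42% and 5.89% of all loci. The list median was -1.01. Col1a1 was at 87.1 against 521 FPKM and Col1a2 at 101 against 410 FPKM, the chains of type I collagen. Col12a1 and Col11a1 had the lowest values, at 0.863 against 48.9 FPKM and 0.508 against 10.8 FPKM. The chains called higher were Col18a1, of basement membranes, at 31.4 against 5.001 FPKM, and Col8a1, at 52.5 against 12.3 FPKM. Col3a1 differed by -0.29. Among 21 loci of collagen processing, 8 (38.1%) were called lower and 1 (P3h2, 4.76%) higher, with a median of -0.62. Lox, the lysyl oxidase that crosslinks collagen and elastin, was at 0.00551 against 101 FPKM, and Loxl2 at 1.09 against 32.0 FPKM.

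All 17 loci of matrix proteases and their inhibitors that were tested had a negative log2 difference, and 9 (52.9%) were called lower. Over all loci, 8.42% were called lower, and the list median was -1.13. Timp3, an inhibitor of metalloproteases, was at 0.0186 against 29.0 FPKM, and Mmp2 at 0.0173 against 18.9 FPKM. Integrins and laminins were split, with 7 of 17 (41.2%) called higher and 5 (29.4%) lower, beside 5.89% and 8.42% of all loci. The list median was 0.22. The nidogens Nid1 and Nid2, which link laminin to collagen IV, were at 0.00266 and 0 FPKM against 48.7 and 46.1 FPKM. Itgb7 was at 23.7 against 0.341 FPKM, and Itga6, Itga7 and Lamb1, of laminin receptors and laminin, were called higher with log2 differences of 2.30, 2.11 and 1.95.

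Growth factors and receptors had a median of -0.02, with 4 of 30 loci (13.3%) called higher and 8 (26.7%) lower. Over all loci, these shares were 5.89% and 8.42%. Fgf7, a growth factor for epithelia, was at 0.397 against 35.6 FPKM, and Igfbp7 at 1.89 against 45.6 FPKM. Ltbp2 and Pdgfrb were called lower at -3.90 and -3.05. The EGF family ligands Areg (7.05 against 0.263 FPKM), Ereg (22.4 against 3.89 FPKM) and Tgfa were called higher, while their receptor Egfr was lower at 1.41 against 15.5 FPKM. None of 7 caveolar loci was called, beside 14.3% of all loci.

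Of the genes that the study examined, Nov, Mertk and C1rl were low in both groups. Nov (CCN3), a matricellular protein, was at 2.85 FPKM in the knockout-labelled group and 0.601 FPKM in the wild-type-labelled group, a log2 difference of 1.26. Mertk, a TAM receptor for apoptotic cells, was at 2.97 against 0.684 FPKM, a log2 difference of 1.24. C1rl, a complement-like protease, was at 0.957 against 0.359 FPKM, below the filter. Rpl19, a ribosomal protein, was at 1333 against 1079 FPKM. In Ago2+/+ DMSO, Nov was at 2.45 FPKM and Mertk at 2.53 FPKM, so the values of the knockout-labelled group were close to those of that group. Mertk was the 1 locus called of 4 TAM receptor and ligand loci tested (25%), beside 14.3% of all loci. The receptors Axl and Tyro3 differed by -0.09 and -0.27.

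None of the Argonautes was called. Ago1 was at 8.30 against 13.8 FPKM, Ago3 at 5.36 against 8.94 FPKM and Ago4, below the filter, at 0.00379 against 0.890 FPKM. Of 18 loci of Argonautes and microRNA machinery tested, 9 had a positive and 9 a negative log2 difference, and the median was -0.00345. Dicer1, the nuclease that makes microRNAs, had the largest positive value, at 32.6 against 18.7 FPKM. Drosha and Xpo5, of nuclear microRNA processing and export, differed by -0.19 and -0.08. The group named DCR1 in the titles thus had Dicer1 transcript.

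**Figure D3:**
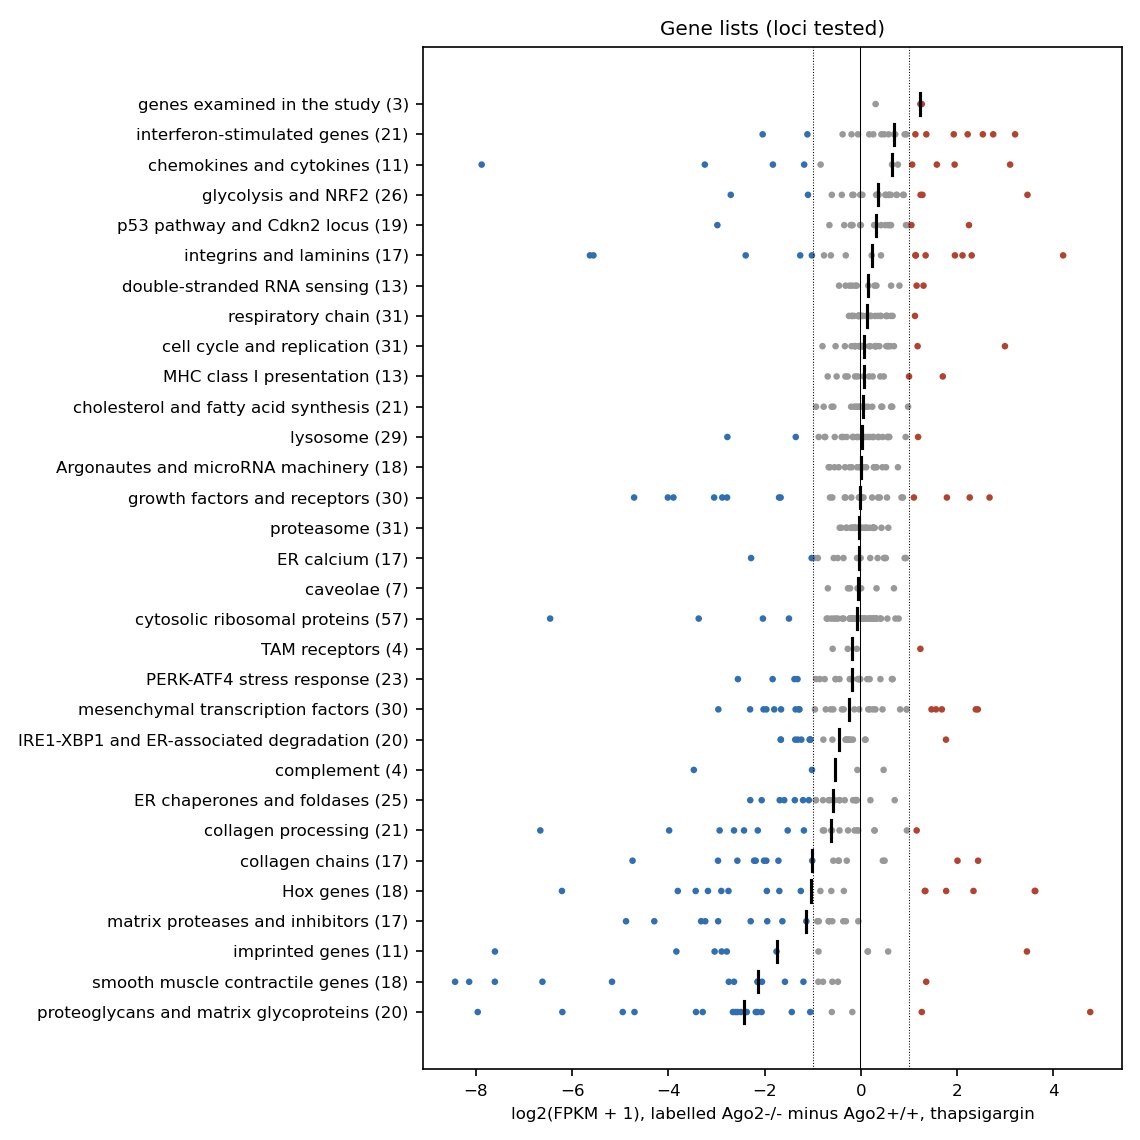
Log2 differences of the tested loci of 31 gene lists, the group labelled Ago2-/- thapsigargin minus Ago2+/+ thapsigargin, with 1 point per locus, the number tested in parentheses and the list median as a bar. Dotted lines mark 2-fold and the solid line the median of all loci; the medians run from -2.43 (proteoglycans and matrix glycoproteins) to 1.24 (the genes that the study examined).

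The Hox genes, which keep a record of where along the body axis a fibroblast arose, differed between the groups. Of 30 loci, 18 were tested. Of these, 6 (33.3%) were called higher and 9 (50%) lower, beside 5.89% and 8.42% of all loci. The median of the tested Hox loci was -1.05, and without the filter on low values it was -0.0058. The Hoxb genes were near 0 in the knockout-labelled group and present, at unequal levels, in the wild-type-labelled group. Hoxb9 was at 74.3 FPKM there and at 0.0161 FPKM in the knockout-labelled group, and Hoxb8, Hoxb2, Hoxb6, Hoxb7, Hoxb3 and Hoxb4 had log2 differences from -3.80 to -1.95. The posterior genes of the Hoxa and Hoxd clusters went the other way. Hoxa11 was at 14.4 against 0.259 FPKM, Hoxd13 at 11.3 FPKM against a listed 0, and the locus of Hoxd10 and Hoxd11 at 4.06 FPKM against a listed 0. Hoxa9 and Hoxa10 were present in both groups and called higher, at 25.4 against 9.42 FPKM and 21.8 against 8.11 FPKM, whereas Hoxa5 was called lower at 3.10 against 8.75 FPKM. All Hoxc loci were under 0.1 FPKM in both groups. Across the other groups, Hoxa11 was at 14.1 FPKM in Ago2+/+ DMSO and listed at 0 in Ago2-/- DMSO, and Hoxb9 at 0.00391 and 31.6 FPKM.

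**Figure D4:**
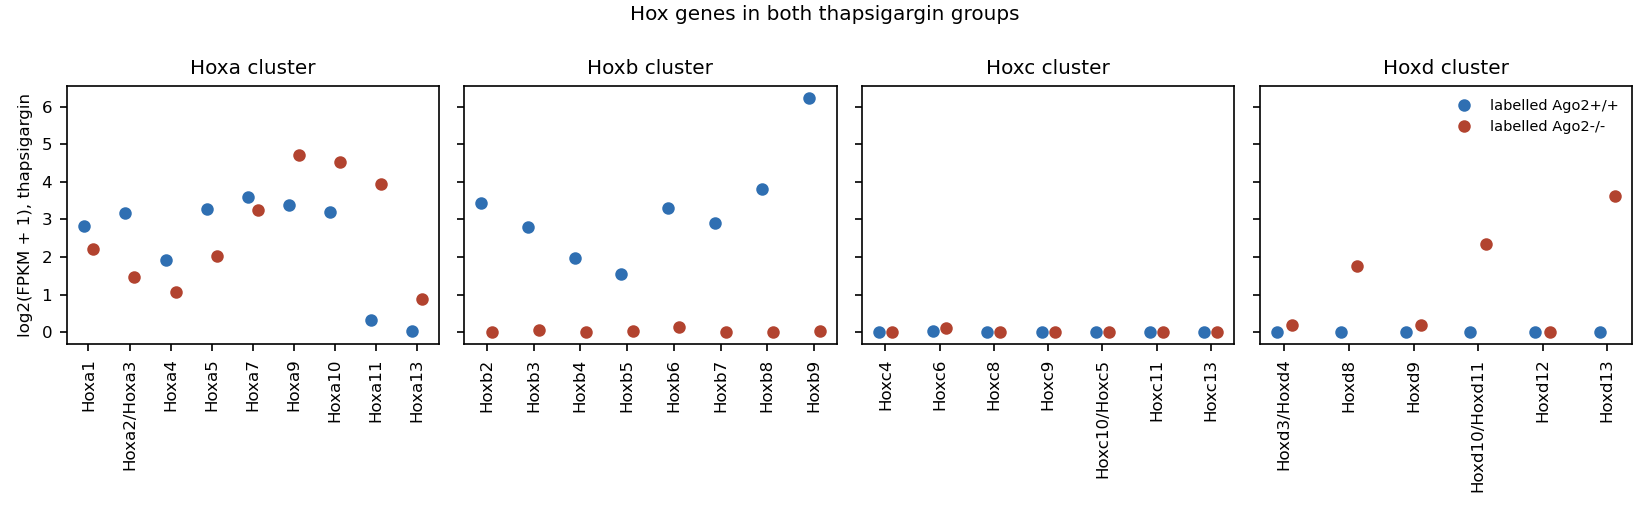
Hox genes of the 4 clusters in both thapsigargin groups as log2(FPKM + 1), ordered by number within each cluster, with 1 deposited value per gene and group. The Hoxb genes lie near 0 in the group labelled Ago2-/- (Hoxb9 at 0.0161 FPKM), and Hoxa11 and Hoxd13 lie near 0 in the group labelled Ago2+/+.

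Other genes that hold a fibroblast's identity were split too. Of 30 mesenchymal transcription factors tested, 5 (16.7%) were called higher and 9 (30%) lower, beside 5.89% and 8.42% of all loci. The list median was -0.25. Gata6 was at 0.00785 against 6.85 FPKM, and Meox2 at 4.38 FPKM against a listed 0. Tbx20, Mef2c and Twist1 were also called higher, and Prrx2, Tbx3 and Tbx5 lower. Of 11 imprinted loci tested, 6 (54.5%) were called lower and 1 (9.09%) higher, beside 8.42% and 5.89% of all loci. The list median was -1.75, and -0.05 over all loci of the list without the filter on low values. Grb10, an adaptor that restrains insulin signalling, was at 0.0570 against 205 FPKM. Peg10, Sgce and Cdkn1c were at 0.390, 1.44 and 0.186 against 18.8, 19.04 and 7.81 FPKM. Phlda2 was the imprinted locus called higher, at 13.8 against 0.352 FPKM.

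Of the growth control genes, 2 of 31 cell cycle loci and 3 of 19 loci of the p53 pathway were called, beside 14.3% of all loci, and the latter count was 5 with FPKM scaled to equal totals. Ccnd1 (cyclin D1) was at 114 against 13.4 FPKM, 8.47-fold higher, and Mcm3 was the other cell cycle locus called, with a list median of 0.06. Cdkn1a (p21), the cyclin-dependent kinase inhibitor that p53 raises, was at 57.4 against 11.3 FPKM. On the p53 list, Cdkn1a and Rb1 were called higher and Pmaip1 (NOXA) lower, at 0 against 6.90 FPKM. Mki67 and Top2a, of dividing cells, differed by 0.31 and 0.53.

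The proteasome, lipid synthesis, respiratory chain, lysosome and ribosomal protein lists had medians between -0.07 and 0.12. None of 31 proteasome loci or of 21 loci of cholesterol and fatty acid synthesis was called, beside 14.3% of all loci. The medians of these 2 lists were -0.03 and 0.03. Of 31 respiratory chain loci, Cox5b alone was called, with a median of 0.12, and of 29 lysosomal loci 1 was called higher and 2 lower, with a median of 0.02. Glycolysis and NRF2 target genes had a median of 0.36, above these, with 5 of 26 loci called, beside 14.3% of all loci. Of the 5, Gsta4, Ldha and Aldoa were higher and Nqo1 and Cat lower. Ldha, which makes lactate, was at 1414 against 583 FPKM. Of 57 ribosomal protein loci, 4 (7.02%) were called lower and none higher, beside 8.42% and 5.89% of all loci. The share called lower was thus near that of all loci, and the list median was -0.07. Rpl29 was at 4.54 against 485 FPKM and Rps2 at 147 against 1530 FPKM. Ribosomal protein genes have many near-identical pseudogenes, and how reads were shared between copies was not tested. The pseudogene Rps2-ps13 was at 1013 against 149 FPKM. The values of single ribosomal protein genes are therefore given as uncertain.

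Of the 10 loci with the largest difference in each direction, the lower ones were, beside the snoRNA locus Snord65, mostly the genes above: Acta2, Myl9, Bgn, Cxcl12, Tagln, Grb10, Lox, Cnn1 and Rpl29. The higher ones were the mitochondrial tRNA gene mt-Tl1, the loci Gm10260, Gm8226, Gm6166 and C920009B18Rik, the snoRNA loci Snord104, Snord53 and Snord32a and the microRNA loci Mir5136 and Mir5125. Snord53, Snord32a, Mir5136 and Mir5125 were listed at 0 in all 5 other groups, and how small RNA loci were counted was not tested. The protein-coding genes with the largest values beside Gm10260 were Adh7, a retinol-oxidizing alcohol dehydrogenase, at 41.6 against 0.515 FPKM, Spp1 and Crabp2, a carrier of retinoic acid, at 39.4 against 0.532 FPKM. In FPKM itself, the largest differences included Acta2, Actg1 (1097 against 2245 FPKM), Hspa5, Rps18, Rps2, the S100a4 locus and the mitochondrial locus of mt-Atp6, mt-Atp8 and mt-Co3 (15406 against 10526 FPKM), together with Gm10180, Gm10260 and Rps2-ps13.

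A switch rule picked 68 of the 11766 tested loci, with at least 10 FPKM in 1 group and under 0.1 FPKM in the other. Of these, 45 (33 protein-coding) were on in the wild-type-labelled group and 23 (4 protein-coding) in the knockout-labelled group. Over the 12 pairs of groups outside the 3 close pairs, this one included, the rule picked between 67 and 95 loci. The count is thus not particular to this comparison. Beside those named above, genes on in the wild-type-labelled group included Hspb1 and Hspb8, small heat shock proteins, Cd34, Ldhb, Ltbr, Ptn and Cyp1b1, and the 4 protein-coding ones on in the knockout-labelled group were Hoxd13, Ifi202b, Sigirr and Cadm1. The rule for this set and its examples were chosen after the values were seen.

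Promoter motifs were counted over the 250 bases before the annotated start, on both strands, for the loci with an entry in the table. The interferon-response motif GAAANNGAAA was in 8 of 18 tested interferon-stimulated loci (44.4%), in 20 of 412 called higher (4.85%), in 30 of 682 called lower (4.40%) and in 249 of all 8477 tested loci (2.94%). The CArG box was in 4 of 15 contractile loci (26.7%), in 18 of the loci called lower (2.64%), in 5 called higher (1.21%) and in 119 of all tested (1.40%). The ER stress response element was in 7 of 20 chaperone loci, in 4 of the loci called lower (0.587%), in none called higher and in 15 of all tested (0.177%). Of all 32851 promoters of this length, 2.98%, 1.47% and 0.113% held the 3 motifs, and 19 held more than 1 of them. The lists consist of genes known for their regulation, so their shares describe the lists and not the comparison. A match is a run of letters, not a measured binding site.

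Differences also followed chromosomes. The median log2 difference was 0.54 over 432 loci of chromosome 12, where 70 loci (16.2%) were called higher and 21 (4.86%) lower. It was 0.20 on chromosome 18 and 0.18 on chromosome 7, and -0.33, -0.30, -0.28 and -0.26 on chromosomes 14, 10, 4 and 19. On chromosome 14, 12 loci were called higher and 55 lower. The medians were nearly the same for loci with at least 5 FPKM in both groups, 0.52 on chromosome 12 and -0.35 on chromosome 14. Over the 19 autosomes, the medians ran from -0.33 to 0.54. In 2 of the 3 close pairs of groups they ran from -0.02 to 0.01 in either. In the third, Ago2-/- thapsigargin minus Ago2+/+ DMSO, they ran from -0.19 (chromosome 2) to 0.26 (chromosome 12). That pair shares the knockout-labelled group with the comparison described here. Dicer1 and Dnajb9 lie on chromosome 12, and Dnajc3 on chromosome 14, so their values stand beside those chromosome medians. With each locus centred on its chromosome, the medians of ER chaperones, contractile genes and interferon-stimulated genes were -0.54, -2.05 and 0.58. The part of these chromosome-wide shifts in the values of single genes was not tested.

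**Figure D5:**
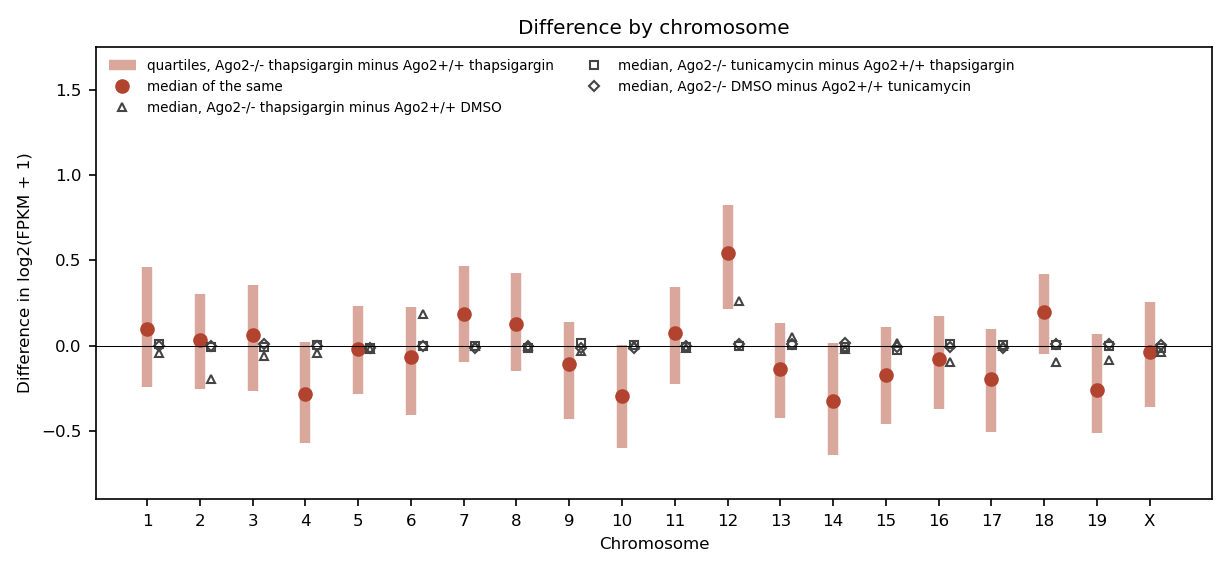
Difference in log2(FPKM + 1) by chromosome: red points are medians over tested loci and bars their quartiles for the group labelled Ago2-/- thapsigargin minus Ago2+/+ thapsigargin, and open symbols are the medians in the 3 close pairs of groups. Chromosome 12 is highest at 0.54 and chromosome 14 lowest at -0.33, while the squares and diamonds stay near 0.

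The same labelled genotypes were compared under DMSO and tunicamycin, with no group in common with the thapsigargin comparison. The rule called 14.9% of loci under DMSO and 18.1% under tunicamycin. Of the 693 loci higher under thapsigargin, 80 were higher past 2-fold and 253 lower past 2-fold under DMSO, and 39 were higher and 254 lower under tunicamycin. Of the 991 loci lower under thapsigargin, 303 were higher and 68 lower under DMSO, and 475 were higher and 51 lower under tunicamycin. More of the called loci thus had the opposite direction than the same direction in each of the other contrasts. How far the close pairs set these directions was not tested. The knockout-labelled group differed at 2.08% of loci from Ago2+/+ DMSO, which is subtracted in the DMSO contrast. The wild-type-labelled group differed at 1.21% of loci from Ago2-/- tunicamycin, which comes first in the tunicamycin contrast. The directions are therefore no independent comparison. The smooth muscle list had medians of -2.14 under thapsigargin, 0.08 under DMSO and 1.57 under tunicamycin. Isg15 had log2 differences of 2.75, -4.05 and 1.80, Acta2 of -8.43, 0.83 and 8.83, and Ago2 of 0.27, -1.81 and 1.29, in the same order. ER chaperones had medians of -0.58, 0.24 and 0.23. Whether these differences between treatments exceed the spread between libraries could not be tested on group values.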

How the data were processed

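RNA from MEFs was sequenced in 18 libraries, 3 in each of 6 groups. Per the submitters' processing notes the authors used FastQC 0.11.7, HISAT2 2.1.0, StringTie 1.3.4d and Cuffdiff 2.2.1 with the build GRCm38. The deposited table holds 1 FPKM for each group, which the authors estimated from all its libraries, for 51499 loci in 15 pairs of groups; FPKM of a locus were identical in all its pairs. Its log2 fold changes, test statistics, p-values and q-values are the authors' own comparisons and were not used.

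FPKM were compared as log2(FPKM + 1) with Python 3.11.15 and pandas 2.3.3. A locus was tested where its mean over both groups reached 1 FPKM, and called at 2-fold. The rule was checked on simulated data. Genes of a list were matched by symbol, also within merged loci (635 loci with several symbols), and 7 symbols had no locus. Where a symbol had several loci, the one with the highest mean was used. Biotypes are from GENCODE M21, by the first gene of a merged locus. Starts in the table count from 0 and are given from 1.

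Members and lists were chosen with earlier results of these data known. Named are the label checks, the 10 loci with the largest difference in each direction and in FPKM, up to 4 called genes of each list per direction, otherwise its most abundant ones, the Argonautes, the study's genes and 5 ER stress genes. Other genes in the text were chosen after their values were seen. Alternatives covered the pseudocount, filter, threshold, scaling and locus sets. Depth is unknown and the pooled value limits the precision.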

Additional observations from a re-analysis of the deposited data

How the results depend on the processing

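Of 693 loci higher and 991 lower, counts moved by over 1.5 times under the filter of at least 5 FPKM (390 and 588), at 4-fold (209 and 369), at 1.5-fold (1502 and 1890) and under the rule of at least 10 FPKM against under 0.1 (23 and 45), the last chosen after seeing the data. The alternatives of pseudocount, lower or no filter, centring, equal totals, merged loci, sex chromosomes, ribosomal and Gm-named loci, and small RNA loci (the last chosen after seeing the data) gave 545 to 882 higher and 891 to 1165 lower. More loci were lower than higher under each. Medians of lists further than 0.1 from 0 changed sign without a filter on low values for complement (0.014), integrins and laminins (-0.23) and adipocyte markers (0.029), and with each locus centred on its chromosome, chosen after seeing the data, for the label checks (0.23). Medians within 0.1 of 0 also changed sign and give no direction. With equal totals these were Argonautes and microRNA machinery (0.07), growth factors (0.05), caveolae (0.0035), ribosomal proteins (0.0044) and proteasome (0.04), with centring Argonautes (0.03) and growth factors (0.01), and with chromosomes centred Argonautes (0.05), ER calcium (0.0089) and lysosome (-0.01). Without the filter the medians of contractile genes, collagen chains and matrix proteases kept their sign at -1.39, -0.52 and -0.67. The sign of a locus past 2-fold could not change with a pseudocount of 0.1, nor with the small shifts of centring or equal totals. These settings therefore did not test the signs of named loci. No paired analysis was possible because the table holds 1 pooled value per group, and for the same reason no replicate could be left out. Without values per library, depth or spread, a 2-fold difference cannot be set against the error between libraries.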

Other observations

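The share of called loci depended on the kind of locus. Of 10159 protein-coding loci tested, 500 (4.92%) were called higher and 859 (8.46%) lower. Of 975 pseudogenes, 116 (11.9%) were called higher and 64 (6.56%) lower, the opposite order. Of 239 small RNA loci, 41 were called higher and 38 lower, in all 33.1%. A merged locus took the biotype of its first gene, so the locus that holds Xist was counted as small RNA. Of all loci tested, 350 were merged, so the shares per kind are approximate. Long noncoding and other loci gave 36 higher and 30 lower of 376.

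The share also depended on abundance. It was 27.2% of 2598 loci with a mean of 1 to 5 FPKM, 13.3% of 4072 loci up to 20 FPKM, 8.18% of 4096 loci up to 100 FPKM and 10.1% of 1000 loci from 100 FPKM. In the last class 77 loci were lower and 24 higher.

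In stretches of 10 Mb with at least 20 tested loci, all 10 of chromosome 12 had a positive median, from 0.41 to 0.76, and all 14 of chromosome 7 did, from 0.04 to 0.28, as did all 9 of chromosome 18. A positive median was found in none of the 12 stretches of chromosome 10, the 7 of chromosome 14, the 7 of chromosome 15, the 9 of chromosome 17 and the 6 of chromosome 19. On chromosome 10 the lowest were the first ones, with -0.62 from 0 to 10 Mb, -0.73 from 10 to 20 Mb and -0.69 from 20 to 30 Mb, while its highest was -0.10. On chromosome 1 the stretch from 30 to 40 Mb stood at 0.59 over 42 loci, beside a median of 0.10 for the chromosome.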
